A study of Mus musculus with 12 samples.

Results

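A total of 497 of the 15848 H3K4me3 peaks of adult mouse cardiomyocyte (CM) nuclei were centred away from the start of their gene and lay inside its body. They were chosen by position alone: on an autosome, assigned to a protein-coding gene, centred at least 1500 bases from the assigned transcription start site (TSS), at least 0.9 of their length within the gene, and under 5000 bases wide. They belonged to 497 genes on 19 autosomes. For comparison, 10202 of the 11286 autosomal peaks of protein-coding genes were centred under 1500 bases from the TSS and are called promoter-centred here.

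Chromatin immunoprecipitation and sequencing (ChIP–seq) of histone H3 trimethylated at lysine 4 was carried out on PCM1-sorted nuclei of heart ventricles, with 3 libraries from CtrlCre and 3 from Cpt1bcKO mice. PCM1 is a centriolar satellite protein that gathers around CM nuclei and is used to sort them. CtrlCre mice carried 1 copy of the αMHC-Cre transgene with normal *Cpt1b* (αMHC-Cre pos/+; Cpt1b +/+), and Cpt1bcKO mice carried the same transgene with floxed *Cpt1b* (αMHC-Cre pos/+; Cpt1b fl/fl). *Cpt1b* encodes the muscle enzyme that passes long-chain fatty acids into mitochondria, so the comparison asks how H3K4me3 differs when CMs cannot use this step of fatty acid oxidation. Both genotypes therefore share Cre under a promoter active in CMs, the labels call the source adult CM, and no age or animal is given per library. P-values measure the spread between libraries, which may be technical. The paper states that its quantitative analyses used at least 3 biological replicates, but the labels tie no library to an animal.

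H3K4me3 is deposited by the SET1 and MLL methyltransferase complexes, mostly at active promoters and most strongly over CpG-rich DNA just downstream of the TSS. In many cell types, genes tied to cell identity carry H3K4me3 that spreads from the TSS into the gene body. A peak inside a gene can also sit on an alternative promoter, on the start of a second gene or on an enhancer.

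The sequences of 6 of these peaks show how different the DNA under them was. They belong to the 3 genes with the smallest p-value in each direction of the genotype comparison, which is given after the description of the peaks. For each, the 300 bases of the peak with the most CG dinucleotides outside annotated untranslated regions are printed on the strand of the gene in build GRCm38 (mm10), with every CG in capitals. The windows are chr8:70629844-70630143 (minus strand, *Gdf15*), chr19:16956257-16956556 (plus strand, *Prune2*), chr10:127326333-127326632 (plus strand, *Arhgap9*), chr1:143643963-143644262 (plus strand, *B3galt2*), chr7:16994616-16994915 (plus strand, *Ccdc8*) and chr6:36387775-36388074 (plus strand, *Chrm2*).
Gdf15: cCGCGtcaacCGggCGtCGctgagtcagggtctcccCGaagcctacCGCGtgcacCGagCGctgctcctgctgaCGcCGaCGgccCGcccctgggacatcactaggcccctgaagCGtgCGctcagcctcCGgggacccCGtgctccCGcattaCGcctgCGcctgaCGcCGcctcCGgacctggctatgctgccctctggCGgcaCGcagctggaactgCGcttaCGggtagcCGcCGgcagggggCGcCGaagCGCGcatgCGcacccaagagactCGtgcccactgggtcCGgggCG
Prune2: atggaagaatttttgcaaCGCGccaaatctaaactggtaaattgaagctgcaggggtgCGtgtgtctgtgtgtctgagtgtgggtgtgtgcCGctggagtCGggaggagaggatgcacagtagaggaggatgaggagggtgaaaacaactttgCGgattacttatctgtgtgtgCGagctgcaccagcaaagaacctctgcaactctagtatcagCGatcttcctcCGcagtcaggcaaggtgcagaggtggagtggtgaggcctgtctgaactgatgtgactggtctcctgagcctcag
Arhgap9: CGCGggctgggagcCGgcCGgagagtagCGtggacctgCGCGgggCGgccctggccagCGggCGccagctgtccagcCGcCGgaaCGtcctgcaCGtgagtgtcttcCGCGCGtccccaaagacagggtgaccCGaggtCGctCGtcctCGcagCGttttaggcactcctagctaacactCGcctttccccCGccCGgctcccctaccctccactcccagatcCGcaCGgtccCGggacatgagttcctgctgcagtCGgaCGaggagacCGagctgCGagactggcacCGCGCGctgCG
B3galt2: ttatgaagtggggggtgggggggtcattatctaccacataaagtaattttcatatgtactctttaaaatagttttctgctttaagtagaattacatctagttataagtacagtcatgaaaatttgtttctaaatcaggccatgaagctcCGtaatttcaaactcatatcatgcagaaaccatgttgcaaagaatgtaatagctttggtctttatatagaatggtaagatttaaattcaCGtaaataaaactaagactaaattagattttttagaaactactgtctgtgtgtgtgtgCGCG
Ccdc8: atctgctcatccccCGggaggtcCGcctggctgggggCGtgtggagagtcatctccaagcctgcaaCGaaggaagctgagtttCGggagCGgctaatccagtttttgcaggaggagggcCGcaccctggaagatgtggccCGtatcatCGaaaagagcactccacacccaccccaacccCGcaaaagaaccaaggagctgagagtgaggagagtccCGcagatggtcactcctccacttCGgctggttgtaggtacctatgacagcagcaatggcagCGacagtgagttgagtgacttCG
Chrm2: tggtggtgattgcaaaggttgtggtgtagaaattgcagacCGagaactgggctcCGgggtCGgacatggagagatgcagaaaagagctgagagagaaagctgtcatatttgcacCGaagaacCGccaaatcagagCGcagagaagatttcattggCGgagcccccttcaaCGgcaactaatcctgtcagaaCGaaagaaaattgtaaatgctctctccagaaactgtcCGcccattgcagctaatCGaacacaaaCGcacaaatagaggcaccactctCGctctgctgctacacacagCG
The *Gdf15* window held 38 CG dinucleotides at 72.7% GC and the *Arhgap9* window 36 at 70.3% GC, both of them far inside their genes: the first was all exon and the second held 175 exon bases of *Arhgap9*. The *B3galt2* window held 4 at 32.3% GC and lay in an intron. It was the stretch with the most only outside untranslated regions. The 300 bases around the summit of that peak, 137 bases from the TSS, had 47.3% GC. The windows of *Prune2*, *Ccdc8* and *Chrm2* lay between those of *B3galt2* and *Arhgap9*, with 9, 14 and 14 CG dinucleotides. The *Prune2* window began 139 bases downstream of the TSS and was mostly intron, that of *Ccdc8* was all exon, and that of *Chrm2* ended 10 bases upstream of the TSS.

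The 497 peaks were of several kinds. In 124, or 24.9%, the peak began upstream of the assigned TSS and spread far into the gene. These were wide, with a median of 4243 bases, and their median peak ran from -345.5 to 3816 bases relative to the TSS. The position rule sets much of this width and extent. A peak over the TSS whose centre lies at least 1500 bases inside the gene has to be wide, and the narrowest had 3133 bases. The summits of the 124 stayed near the TSS, at a median of 488.5 bases downstream, and 113 of the 124 had the summit within 1500 bases.

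The other 373 peaks did not reach the assigned TSS. Of these, 201 contained another annotated start of the same gene (GENCODE vM21), with a median width of 1442 bases and a centre at a median of 3089 bases from the assigned TSS. A further 17 contained only the start of another gene. The remaining 155 contained no vM21 start, were narrower at a median of 807 bases, and 133 of them had no RefSeq start either. Only 110 of the 373 belonged to a gene with another assigned peak, so for 263 genes the peak inside the gene was the only H3K4me3 peak assigned.

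**Figure D1:**
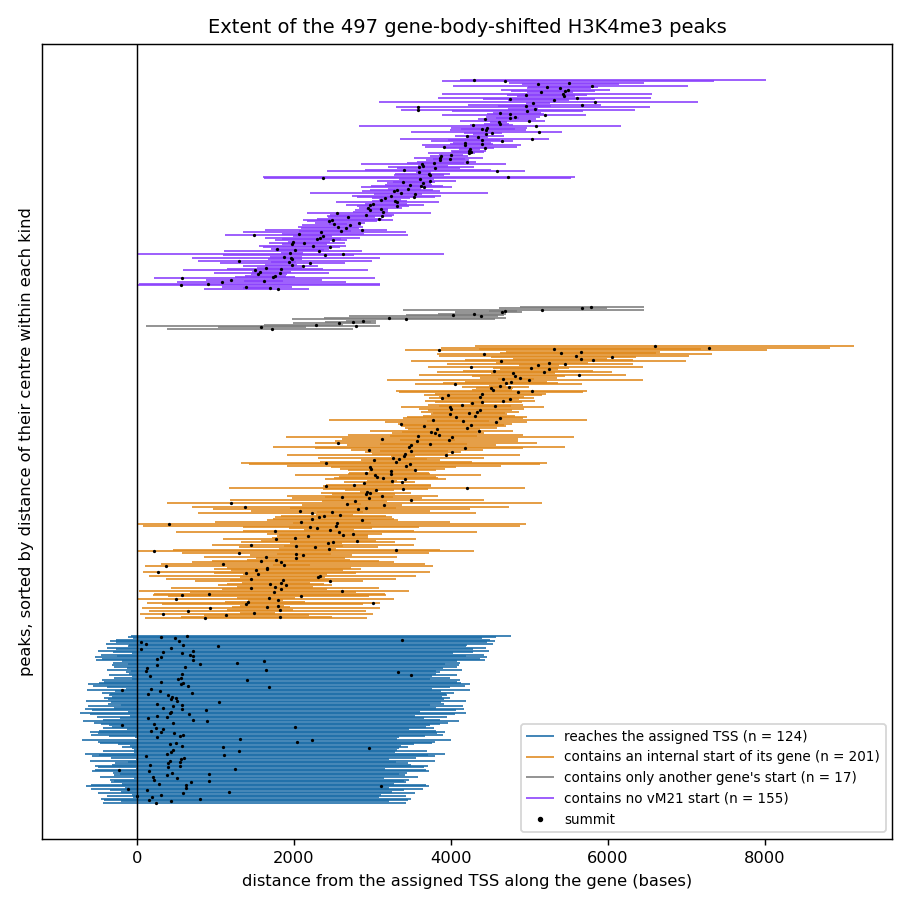
Each horizontal line is 1 of the 497 peaks, from its first to its last base along the gene in bases from the assigned TSS (vertical line at 0), coloured by kind, with a dot at the summit. The 124 peaks that reach the TSS keep their summits close to it, at a median of 488.5 bases, while the summits of the other kinds move with the peak, at medians of 3027 to 3535 bases.

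Levels per length followed these kinds. The median over the 497 peaks was 40.5 normalized counts per kilobase (mean of 6 libraries), against 72.6 for promoter-centred peaks. Peaks that reached the TSS had a median of 55.5 per kilobase, those on an internal start 48.5 and those without a start 26.8. The quartiles overlapped widely: the upper quartile of peaks on internal starts, 80.01 per kilobase, lay above the median of promoter-centred peaks.

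Fewer of the summits were CpG-rich than at promoter-centred peaks. In the 300 bases around the summit, 62.4% of the 497 peaks had over 50% GC together with an observed-to-expected CpG ratio over 0.6, here called a CpG-rich summit, against 80.4% of promoter-centred and 65.8% of all peaks. The share was 70.1% for peaks on internal starts, 58.9% for those reaching the TSS and 54.2% for those without a start. Over their whole width, peaks reaching the TSS had a median CpG ratio of 0.460, and promoter-centred peaks at least as wide as the narrowest of them (3133 bases) and under 5000 bases had 0.626. These are descriptions of the peaks, without a test.

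The peaks with the highest mean values were those of *Mcl1*, *Slc25a3*, *Ifrd1*, *Amotl2*, *Plscr2* and *Abra*. *Mcl1*, an anti-apoptotic BCL2 family member, had 479, 458 and 532 normalized counts in CtrlCre 1 to 3 and 496, 488 and 454 in Cpt1bcKO 1 to 3. *Slc25a3*, the mitochondrial phosphate carrier, had 448, 423 and 480 against 488, 570 and 431. *Amotl2*, an angiomotin family member, had 433, 470 and 432 against 460, 487 and 454, and its peak covered an internal start while beginning 386 bases downstream of the assigned TSS. Values of the genotypes overlapped at these 3 genes, as they did at *Ifrd1* (365 to 474 against 460 to 555) and *Plscr2* (372 to 470 against 390 to 528). *Abra*, a muscle actin-binding protein, was the densest of the 6 at 111 normalized counts per kilobase. It had 382, 370 and 442 normalized counts against 447, 541 and 445, which did not overlap, with a log2 difference of 0.26 ± 0.10 (SE) that did not pass (unadjusted p = 0.0202, limma).

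Recovered counts in peaks ranged from 763133 in CtrlCre 2 to 2766416 in Cpt1bcKO 2, so CtrlCre 2 carried the largest counting error, and 3 counts there equalled 6.97 normalized counts. Values are relative, because the size factors remove a gain or loss shared by all peaks. The *Cpt1b* peak itself, which does not test for the deletion, had a mean of 424 ± 14.98 in CtrlCre and 610 ± 68.7 in Cpt1bcKO (SD, n = 3 each; adjusted p = 0.00357, limma). That peak ran from -5288 to 3868 bases around the *Cpt1b* TSS, with its summit at -3838 bases. It also holds annotated starts of *Chkb*, *C730034F03Rik* and *Gm44502*, so the rise cannot be assigned to *Cpt1b* alone. Of 10 markers each, 9 CM markers had a peak, none of them called, with summed values of 7470 to 8936 in CtrlCre and 5765 to 8296 in Cpt1bcKO, against 2 endothelial, 1 fibroblast and none of the macrophage and blood markers. The log2 differences of *Myh6*, *Ryr2*, *Myl2*, *Pln*, *Tnnt2*, *Tnni3* and *Ttn* were -0.39, -0.32, -0.29, -0.28, -0.16, -0.15 and -0.14. Those of *Mybpc3* and *Actn2* were 0.26 and 0.02. *Myh6* gave a large part of the summed values, with 2605, 2399 and 2930 in CtrlCre and 2142, 2446 and 1544 in Cpt1bcKO. Of 10 smooth muscle and pericyte markers, 6 had a peak, and their summed values were lower in Cpt1bcKO (210 to 239) than in CtrlCre (360 to 456). Of these 6, *Acta2* and *Abcc9* fell (log2 difference -2.23 and -0.55, adjusted p = 7.36e-05 and 0.0127, limma). *Cspg4*, *Myh11*, *Cnn1* and *Kcnj8* had log2 differences of -1.05, -0.72, -0.61 and -0.006 that did not pass. *Abcc9* gave a large part of the summed values, with 201, 174 and 175 in CtrlCre and 125, 146 and 107 in Cpt1bcKO. *Tagln*, *Pdgfrb*, *Rgs5* and *Notch3* had no assigned peak. The part of these cells in the results below was not tested, and fewer cells of a type cannot be told apart from less H3K4me3 per cell.

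Together the 497 peaks held nearly the same share of the counts in both genotypes. It was 3.15%, 3.16% and 3.21% in CtrlCre 1 to 3 and 3.11%, 3.18% and 3.09% in Cpt1bcKO 1 to 3. The ranges overlapped, with means of 3.17 ± 0.03% and 3.13 ± 0.05% (SD, n = 3 each). Peaks reaching the TSS contributed 1.65 ± 0.03% and 1.61 ± 0.06%, and those without a start 0.342 ± 0.006% and 0.336 ± 0.020%.

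Single peaks did differ. Of the 464 with a mean of at least 10 normalized counts, 21 were lower and 10 higher in Cpt1bcKO at an adjusted p under 0.05 (limma on log2(value + 1), adjusted over all 15039 tested peaks). That is 6.68% of them, where 2.93% of all tested peaks were called, 1.82% lower and 1.11% higher. The other 33 peaks, 22 of them without a start, were below the minimum and were not tested. Of the 464, 16 had a genotype mean under 10, and none of those was among the 31. In each of the 31 peaks the values of the genotypes did not overlap, which is no separate support because the p-value rests on the same values. The genotypes were apart in 100 of the 464, with Cpt1bcKO below in 65 and above in 35, where 16.3% of all tested peaks were apart, 8.46% with Cpt1bcKO below and 7.8% above. At an unadjusted p under 0.05, 61 were lower and 27 higher, where 12.8% of all tested peaks passed, 6.98% lower and 5.84% higher. With 1 library left out, 11 to 18 peaks in all were called lower (13 without CtrlCre 3, 11 without Cpt1bcKO 2 and 11 without Cpt1bcKO 3), 10 to 16 of them among the 21, and 7 to 10 were called higher, 7 to 9 of them among the 10. Of the 31 peaks, 14 were called in all 6 of these fits, among them *Gdf15*, *Prune2*, *Arhgap9*, *B3galt2*, *Ccdc8*, *Chrm2*, *Hopx*, *Clu*, *Ankrd23*, *Klhl38*, *Ucp3*, *Ephx2* and *Ugp2*. The median log2 difference was -0.02 over the 464 and 0.01 over all tested peaks.

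Most of the calls were wide peaks that reach the TSS. These gave 13 lower and 6 higher of 124, whereas peaks on internal starts gave 4 and 2 of 190, those on the start of another gene 1 and 0 of 17, and those without a start 3 and 2 of 133. Without the peaks that reach the TSS, the share called was 3.53% of 340, close to the 2.93% of all tested peaks. Precision differed between kinds, with a median SE (log2 scale) of 0.11 for peaks reaching the TSS and 0.34 for those without a start. At matched width (3133 to under 5000 bases), 23 of 162 members were called, or 14.2%. Of all peaks of that width, 109 of 1236 were called (8.82%), and of promoter-centred peaks 39 of 807 (4.83%). The 1236 include both of these groups. By these counts the remaining wide peaks, in neither group, were also called more often than promoter-centred ones, so a raised share is not particular to the members. Among these 162, 15.3% of the 124 that reach the TSS were called, and 4 of the 38 that do not, or 10.5%. A CpG-poor summit moved with the calls too, as 21.6% of the reaching peaks with one were called against 10.96% with a CpG-rich summit, and the same order held over all tested peaks (5.6% against 1.67%). The parts of width and composition in the calls were not tested.

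**Figure D2:**
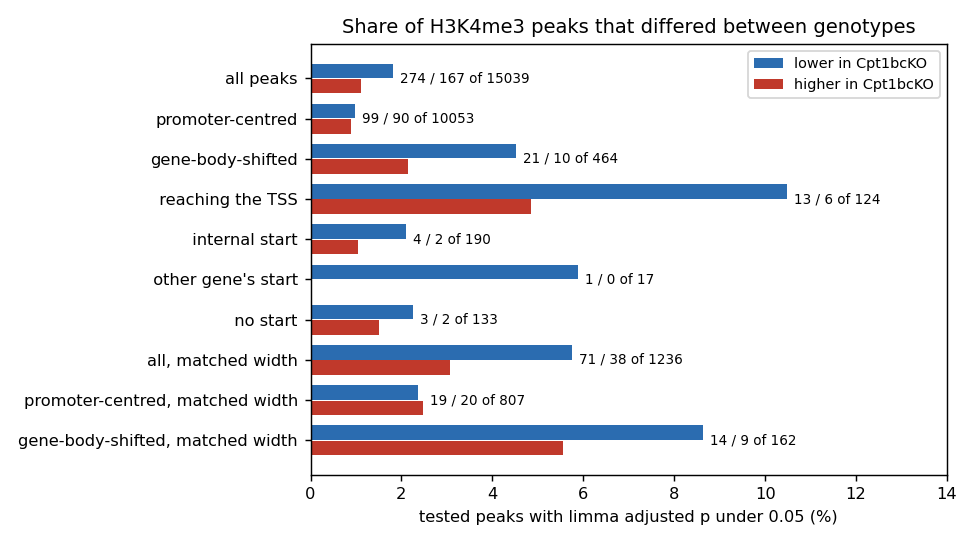
Bars give the percentage of tested peaks with a limma adjusted p under 0.05, lower (blue) or higher (red) in Cpt1bcKO, with counts lower / higher of tested beside them; matched width means 3133 to under 5000 bases. Peaks that reach the TSS show 13 lower and 6 higher of 124, and the other kinds lie near the level of all peaks apart from the small set of 17.

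The peak of *Gdf15* showed the largest increase of these peaks. *Gdf15* encodes a secreted cytokine of the TGF-beta superfamily that is induced by cellular and mitochondrial stress. Its peak (chr8:70629464-70631681) lay 775 to 2992 bases downstream of the TSS, over intron and exons, contained no annotated start and was the only peak assigned to the gene. It had 29, 35 and 40 normalized counts in CtrlCre 1 to 3 and 157, 149 and 135 in Cpt1bcKO 1 to 3. Every Cpt1bcKO library was thus far above every CtrlCre library, a 4.18-fold increase (log2 difference 2.06 ± 0.17, SE; adjusted p = 1.10e-07, limma). The CG-dense window printed above lies 2313 to 2612 bases downstream of the TSS, inside this peak.

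*Arhgap9*, which encodes a GTPase-activating protein, had the other called increase without a start in the peak. The peak (chr10:127325856-127329322) began 3892 bases downstream of the TSS and had its summit at 4687 bases, next to the second CG-dense window printed above. Values were 112, 95 and 128 in CtrlCre and 206, 213 and 205 in Cpt1bcKO. The 3 Cpt1bcKO libraries lay within 8 normalized counts of each other and above all controls, a 1.87-fold increase (log2 difference 0.90 ± 0.12; adjusted p = 4.78e-05, limma).

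*Prune2*, which encodes a BCH-domain protein, had a peak from -665 to 3920 bases around its TSS. It had 127, 151 and 203 normalized counts in CtrlCre and 348, 304 and 322 in Cpt1bcKO. The genotypes did not overlap, and the increase was 2.05-fold (log2 difference 1.04 ± 0.13; adjusted p = 1.94e-05, limma). *Ankrd23*, a muscle ankyrin-repeat protein that binds titin, had a peak over an internal start, with 173, 202 and 171 against 288, 311 and 254. It rose 1.56-fold (log2 difference 0.64 ± 0.11; adjusted p = 7.94e-04, limma).

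Of the increases, 3 were at genes of the lists for lipid and glucose metabolism described further on. *Ucp3*, a mitochondrial carrier of muscle whose expression follows fatty acid supply, had 218, 219 and 227 normalized counts in CtrlCre and 356, 361 and 288 in Cpt1bcKO over a peak from -534 to 4462 bases that also holds an annotated start of *Gm10603*. All Cpt1bcKO values were higher, and the increase was 1.5-fold (log2 difference 0.59 ± 0.10; adjusted p = 0.00128, limma). *Plin5*, which coats lipid droplets and ties them to mitochondria, had 109, 100 and 115 against 165, 161 and 141, and its peak began 13 bases inside the annotated TSS. It rose 1.44-fold (log2 difference 0.52 ± 0.12; adjusted p = 0.015, limma), a call lost without CtrlCre 1, Cpt1bcKO 1 or Cpt1bcKO 2. *Ephx2*, the soluble epoxide hydrolase that acts on fatty acid epoxides, is in none of the lists. It had 106, 102 and 109 against 161, 181 and 166, 1.6-fold higher (adjusted p = 9.89e-04, limma). *Ugp2*, which makes the UDP-glucose used for glycogen, had 274, 277 and 311 against 389, 478 and 389 over a peak that also holds an annotated start of *Gm12043*. It rose 1.45-fold (log2 difference 0.54 ± 0.10; adjusted p = 0.00308, limma).

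*Tigar*, a fructose-2,6-bisphosphatase that lowers glycolytic flux, was one of the 3 peaks just inside the distance limit, at 1512 bases. It had 139, 128 and 180 normalized counts in CtrlCre and 205, 227 and 201 in Cpt1bcKO (log2 difference 0.51 ± 0.12; adjusted p = 0.0177, limma), and with 1 library left out it kept its call only without CtrlCre 3. The tenth increase was *Pabpc4*, named after its values were seen, a cytoplasmic poly(A)-binding protein with 219, 198 and 210 against 267, 287 and 269 (log2 difference 0.39 ± 0.10; adjusted p = 0.0242, limma), a call lost in each of the 6 fits without 1 library and with a replicate block.

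**Figure D3:**
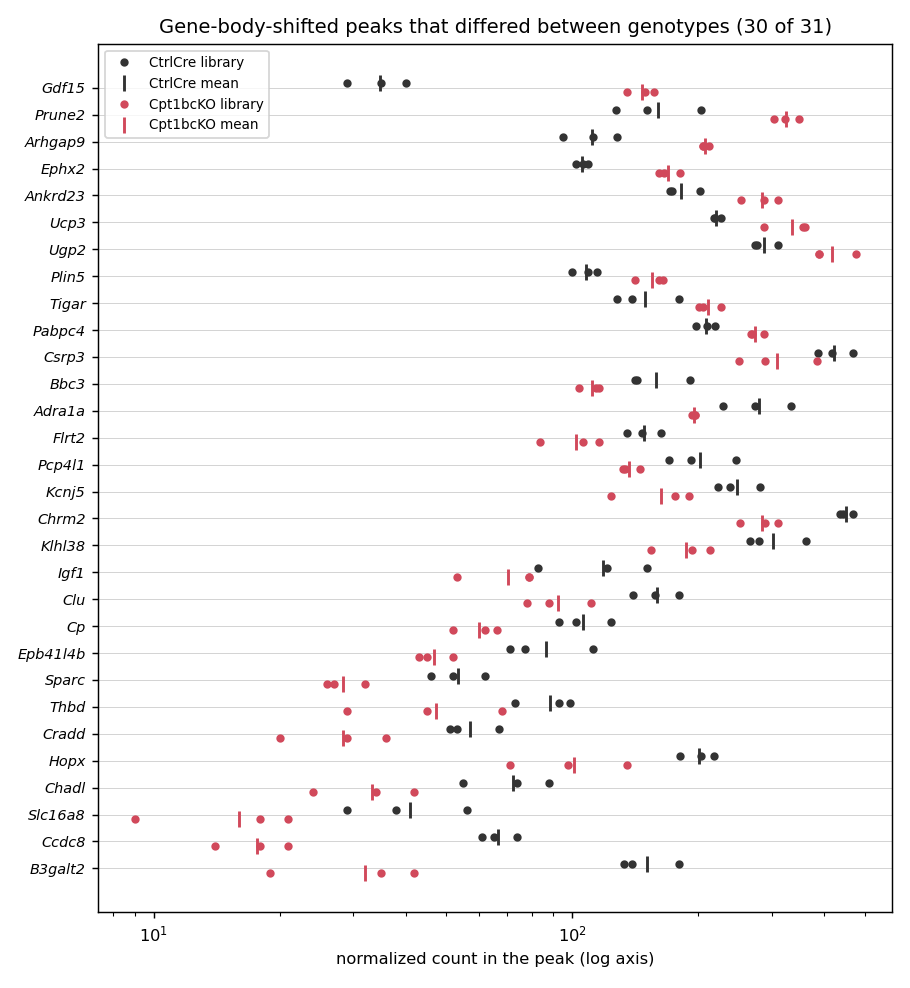
Each row is 1 of 30 of the 31 peaks that differed, with the normalized count of each CtrlCre library (dark) and each Cpt1bcKO library (red) on a log axis and a tick at each genotype's mean. The 10 increases stand above 20 of the decreases, and the values of the genotypes are apart in each row, by 1 normalized count in *Csrp3*.

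The largest decrease was at *B3galt2*, which encodes a beta-1,3-galactosyltransferase. Its peak (chr1:143640321-143644597) ran from -343 to 3933 bases, and the gene lies within *Cdc73*, so the reads cannot be assigned to 1 of the genes. It had 133, 139 and 180 normalized counts in CtrlCre and 35, 19 and 42 in Cpt1bcKO. The genotypes were far apart, a 4.79-fold decrease (log2 difference -2.26 ± 0.22; adjusted p = 1.08e-06, limma). *Ccdc8*, a component of the 3M growth-control complex, had a peak entirely in exon sequence, 883 to 2359 bases from the TSS, with a RefSeq start but no vM21 start inside it. Its values were 61, 74 and 65 against 21, 18 and 14, 3.66-fold lower (log2 difference -1.87 ± 0.26; adjusted p = 9.13e-05, limma).

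*Chrm2*, the M2 muscarinic receptor that slows the heart, had 443, 470 and 438 normalized counts in CtrlCre and 289, 310 and 252 in Cpt1bcKO, over a peak from -527 to 4438 bases that also holds an annotated start of *9330158H04Rik*. All Cpt1bcKO libraries were lower, by 1.59-fold (log2 difference -0.67 ± 0.10; adjusted p = 2.07e-04, limma). *Kcnj5*, a potassium channel subunit opened through that receptor, had 238, 281 and 223 against 190, 176 and 124, a fall by 0.61 on the log2 scale (adjusted p = 0.00946, limma), a call lost without Cpt1bcKO 3. *Adra1a*, the alpha-1A adrenergic receptor, had 274, 230 and 333 against 197, 193 and 197, a fall by 0.49 (adjusted p = 0.0159, limma) that kept its call with 1 library left out only without CtrlCre 2. *Kcnj5* and *Adra1a* were named after their values were seen, and no list of receptors was tested.

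*Hopx* encodes a homeodomain protein without DNA binding that restrains serum response factor in the heart. It had 218, 181 and 203 normalized counts in CtrlCre and 135, 98 and 71 in Cpt1bcKO over a peak from -395 to 4536 bases. The genotypes did not overlap, and the decrease was 2.03-fold (log2 difference -1.02 ± 0.16; adjusted p = 4.06e-04, limma). *Klhl38*, a kelch-like protein of striated muscle, had 266, 279 and 363 against 194, 214 and 154, 1.61-fold lower (log2 difference -0.69 ± 0.13; adjusted p = 0.00193, limma). *Csrp3*, the muscle LIM protein of the Z-disc, had 417, 386 and 468 against 289, 385 and 251. It fell 1.39-fold (log2 difference -0.48 ± 0.12; adjusted p = 0.0347, limma), but Cpt1bcKO 2 lay 1 normalized count below the lowest control, and the call was lost without CtrlCre 1, CtrlCre 3, Cpt1bcKO 1 or Cpt1bcKO 3 (log2 difference -0.34 to -0.49) and with a replicate block.

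*Clu*, an extracellular chaperone, and *Cp*, a copper-binding ferroxidase, are secreted proteins. *Clu* had 140, 158 and 180 normalized counts in CtrlCre and 78, 111 and 88 in Cpt1bcKO, 1.73-fold lower (adjusted p = 0.00159, limma). *Cp* had 93, 102 and 124 against 62, 66 and 52, 1.76-fold lower (adjusted p = 0.005, limma), a call lost without CtrlCre 3. A further 10 lower peaks were those of *Chadl*, *Pcp4l1*, *Epb41l4b*, *Thbd*, *Flrt2*, *Cradd*, *Bbc3*, *Slc16a8*, *Igf1* and *Sparc*, all but *Cradd* named after their values were seen, with log2 differences from -0.49 at *Bbc3*, a pro-apoptotic BCL2 family member, to -1.33 at *Slc16a8*, a lactate transporter. Each of the 10 lost its call in 1 to 5 of the 6 fits without 1 library, *Thbd* in 3 and *Sparc* in 5. Some of these genes are best known from other cells of the heart, such as *Thbd*, the thrombin receptor of endothelium (73, 93 and 99 against 68, 29 and 45), and *Sparc*, a matrix protein (62, 46 and 52 against 26, 27 and 32). Summed endothelial marker values, from *Flt1* and *Kdr* alone, were 64 to 135 in CtrlCre and 64 to 88 in Cpt1bcKO. *Kdr* had 39, 91 and 64 against 31, 45 and 51 (log2 difference -0.55). *Flt1* had 25, 44 and 29 against 33, 19 and 37 (log2 difference -0.15), and neither passed. The fibroblast marker with a peak, *Pdgfra*, is itself one of the 497, with 69, 58 and 68 against 59, 56 and 63. Their part in these decreases was not tested.

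**Figure D4:**
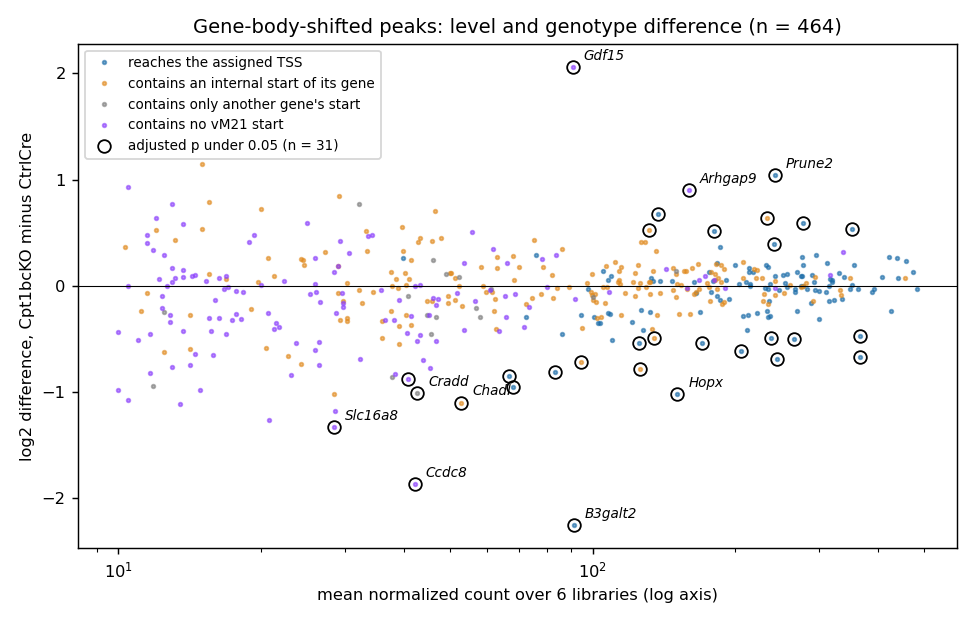
Each point is 1 of the 464 tested peaks, by its mean normalized count over 6 libraries (log axis) and its log2 difference (Cpt1bcKO minus CtrlCre), coloured by kind, with circles around the 31 that passed. The spread widens to the left, where peaks without a start are most frequent, and *Gdf15*, *B3galt2* and *Ccdc8* lie outside it at 2.06, -2.26 and -1.87.

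Few of the peaks belonged to genes of cardiac function lists. Of 59 genes of fatty acid and lipid metabolism, 5 had one, of which *Ucp3* and *Plin5* rose and none fell. *Eci1*, *Lipe* and *Acot11*, an enoyl-CoA isomerase, the hormone-sensitive lipase and an acyl-CoA thioesterase, had log2 differences of 0.10, 0.14 and 0.28 that did not pass. Of 30 genes of glucose uptake and glycolysis, 4 had one: *Ugp2* rose, and *Gpi1*, *Hk2* and *Pygm* had log2 differences of 0.13, 0.09 and 0.05 that did not pass. The median log2 difference was 0.28 over the 5 peaks of the first list and 0.11 over the 4 of the second, beside 0.01 over all tested peaks. So few peaks do not describe the whole lists. Of 51 genes of contraction and maturation, 3 had one, of which *Csrp3* fell, while *Trim63*, a muscle ubiquitin ligase, and *Myot*, a Z-disc protein, had -0.03 and 0.26. Of 39 transcription factors and nuclear receptors, 2 had one: *Hopx* fell, and *Zbtb16*, a zinc-finger repressor, had 27, 23 and 37 against 11, 21 and 6 (log2 difference -1.26 ± 0.41; adjusted p = 0.124, limma). Medians were -0.03 over the 3 peaks of contraction and maturation and -1.14 over the 2 of transcription factors and nuclear receptors. *Fxyd1*, a regulator of the sodium pump, was the one gene of 50 for calcium handling and ion channels, at -0.04.

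The distance limit of 1500 bases cut through peaks of a similar kind. Just inside it, *Hipk3*, *Myot* and *Tigar* were centred at 1500, 1506 and 1512 bases, with means of 323, 39.8 and 180 normalized counts. Just outside, *Eno1*, *Il15* and *Tap2* were centred at 1494, 1494 and 1499 bases, with means of 315, 188 and 77.8.

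For genes with more than 1 assigned peak, the mark inside the gene was compared in the same library with the assigned peak nearest the TSS, called the start peak here. This could be done for 89 of these peaks, with adjustment over 238 pairs of all genes. In 86 of the 89 pairs the start peak was centred under 1500 bases from the TSS. The inner peak was lower per kilobase in 57 and higher in 32, with medians of 32.9 and 49.7 normalized counts per kilobase for inner and start peaks. The inner-to-start ratio did not differ between genotypes at an adjusted p under 0.05 in any of the 89 pairs (limma; smallest adjusted p = 0.178, 0.42% of the 238 pairs called). With limma-voom on recovered counts, 0 of the 89 passed as well. At an unadjusted p under 0.05 there were 19, 12 lower and 7 higher, where 15.1% of the 238 pairs passed. The median SE of the log2 ratio was 0.29, and ratio differences of -1.17 at *Prkaca* and 1.30 at *Nol4*, on the log2 scale, did not pass.

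**Figure D5:**
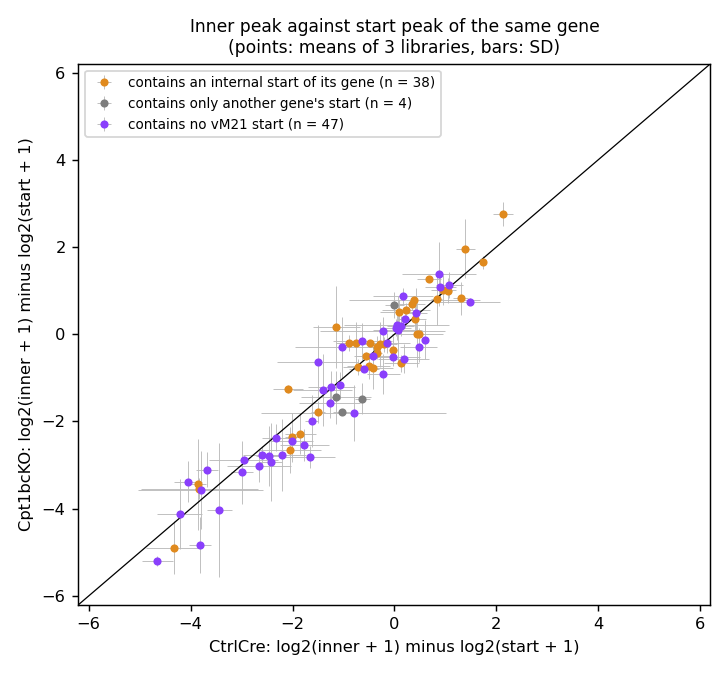
Each point is 1 of 89 genes, by the mean log2 ratio of inner to start peak in CtrlCre (horizontal) and in Cpt1bcKO (vertical), with SD bars over 3 libraries and a line of equality. Points lie along the line of equality, and none of the 89 differences passed the test.

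The pairs with the smallest p-values show the size of what was seen. At *Prkaca*, the catalytic subunit of protein kinase A, the inner peak had 24, 46 and 52 normalized counts in CtrlCre and 21, 14 and 15 in Cpt1bcKO, beside 116, 126 and 130 against 128, 108 and 132 at the start. The inner values were lower in Cpt1bcKO and those at the start overlapped (log2 ratio difference -1.17 ± 0.32; adjusted p = 0.178, limma). At *Cradd*, an adaptor of death-domain signalling, the inner peak holds the start of another gene and was among the 21 decreases. It had 51, 53 and 67 against 36, 29 and 20, beside 88, 74 and 105 against 81, 80 and 75 at the start (log2 ratio difference -0.85 ± 0.25). *2700081O15Rik*, *Arhgap27* and *Tlr5* had log2 ratio differences of -0.75, -0.81 and -0.78.

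In the other direction, at *Sgca*, the alpha-sarcoglycan of the muscle membrane complex, the genotypes were apart at the start peak instead, with 116, 109 and 114 against 77, 64 and 60, while the inner peak had 61, 49 and 74 against 58, 61 and 55 (log2 ratio difference 0.69 ± 0.23; adjusted p = 0.204, limma). *Pop5*, *Wfdc1* and *Nol4* had log2 ratio differences of 0.59, 0.67 and 1.30, none of which passed.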

How the data were processed

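H3K4me3 ChIP–seq libraries of 3 CtrlCre and 3 Cpt1bcKO samples were analysed, and the 6 input libraries were not used here because the table used has no input column. The authors trimmed reads with Trimmomatic 0.39, aligned them to mm10 (GRCm38) with STAR 2.6.1d, removed duplicates with Picard 2.21.7, called MUSIC peaks against input (false discovery rate 0.2), merged them into 15848 union peaks and divided reads per peak by DESeq2 1.26.0 size factors. Each deposited library value is such a normalized count without its decimals and was handled as a score. The deposited mean of each genotype is a signal made by the authors from the same normalized counts before rounding. The deposited fraction of each peak in the gene body and its distance in bases came from the annotation of the authors. The authors' fold changes, p-values and adjusted p-values on the log2 scale were not used. Union peaks carry 1 gene name each, and their width is that of the union over genotypes.

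Whole counts were recovered as the integers that match the library values and the deposited means of a peak together, with a single solution for 15848 of 15848 peaks, and they served depth and 1 alternative. Counts in peaks ranged from 763133 to 2766416, and floors cover counting error only. Peaks with a mean of at least 10 were tested with limma 3.58.1 (R 4.3.3) on log2(value + 1), genotype alone, two-sided, with Benjamini-Hochberg adjustment over all 15039 of them, so fold changes of low peaks are understated. Ratios within a gene were fitted the same way over 238 pairs. Both fits were also run on simulated data with large known changes, with all pairs at a single level. That run does not show whether differences as small as those seen in the pairs could be found. Gene limits and coordinates are as deposited, starts are from GENCODE vM21 and RefSeq of GRCm38.p6, matched by gene identifier for 497 of 497 genes, and sequence was read from the RefSeq genome with pysam 0.24.0.

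The peaks, gene lists and tests were chosen with earlier results of these data known. Named genes were, among members with an adjusted p under 0.05 and genotypes apart, the 8 with the smallest p in each direction, then the 6 with the highest mean, the 3 on each side of the distance limit, called members of the lists, and the 5 pairs in each direction with the smallest p; 2 of the genes this rule names are not reported here. Samples were grouped by their labels. Alternatives were another pseudocount, filter, normalization and test, a replicate block, each library left out, and stricter position rules.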

Additional observations from a re-analysis of the deposited data

How the results depend on the processing

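With 1 library left out, 11 to 18 peaks were called lower, of which 10 to 16 were among the 21, and 7 to 10 higher, of which 7 to 9 were among the 10. Without CtrlCre 3 the lower count was 13, and it was 11 without Cpt1bcKO 2 and 11 without Cpt1bcKO 3. The same 14 peaks were called in all 6 of these fits, 7 lower and 7 higher. Over all tested peaks, 139 to 251 were lower and 85 to 180 higher, against 274 and 167 with all libraries, and the lowest counts came without CtrlCre 1 and Cpt1bcKO 3. The stricter position rules left 8 lower and 3 higher peaks at 2000 bases or more, 11 and 6 with the whole peak in the gene, and 8 and 4 for peaks that do not reach the TSS. These are 3.86%, 4.61% and 3.53% of the peaks they keep, against 6.68% of all 464. A pseudocount of 8, no filter, a mean of at least 50, quantile normalization and limma-voom on recovered counts gave 17 to 24 lower and 10 to 11 higher peaks; limma-voom shared 18 of the 21 lower calls. The single within-gene call, not one of these peaks, became 0 without the filter and 0 to 1 with a library left out. The log2 difference of *Mcl1*, not called, ranged from -0.0756 to 0.0322 with 1 library left out and changed sign without CtrlCre 3 or Cpt1bcKO 3. That of *Plscr2*, also not called, ranged from -0.0434 to 0.175 and changed sign without CtrlCre 2 or Cpt1bcKO 2. Each of the 31 other than those 14 lost its call in 1 to 6 of the fits with a library left out, from 1 for *Kcnj5*, *Cp* and *Chadl* to 6 for *Pabpc4*. The cause of these changes was not tested.

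Replicate numbers are shared by the genotypes. To check them as pairs, the mean of its genotype was subtracted from each library at every tested peak. These deviations, not the values themselves, correlated between same-numbered libraries at 0.0759, -0.0812 and 0.105, so the numbers were not taken as pairs. With a replicate block, 19 peaks were lower and 9 higher, all among the 31. Depth limits the narrow peaks without a start, whose differences had a median SE of 0.34.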
